A study of Homo sapiens with 8 samples.

Results

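The 410 G3BP1 binding sites of chromosome 19 were taken from the 4346 sites that the authors deposited for HEK293T cells, an established line of human embryonic kidney cells. A site was chosen if its row named chromosome 19, on either strand, in 1 of 2 peak lists. The list from untreated cells (Ctrl) gave 157 of its 1421 peaks, and the list from cells that received 20 µM PDS for 12 h before crosslinking gave 253 of its 2925 peaks. The labels leave PDS unexplained; it is a common short form of pyridostatin, a ligand that stabilises guanine quadruplexes. Sites had been mapped by seCLIP, in which RNA is fixed to protein by ultraviolet light, the protein is pulled down with an antibody (immunoprecipitation, IP), and the RNA recovered is sequenced beside an input library made without antibody. The 8 libraries comprised 2 IP and 2 input replicates of the untreated cells and the same of the PDS-treated cells, and the line carried no other agent or modification that the labels name.

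G3BP1 is a cytoplasmic RNA-binding protein that nucleates stress granules, assemblies in which mRNAs and stalled translation complexes gather when translation initiation is blocked. Guanine quadruplexes are folds in which runs of guanine stack into planar tetrads, in RNA as well as in DNA, and the series asked whether G3BP1 binds them in mRNAs. Chromosome 19 is known for its high density of genes, its high content of guanine and cytosine, and its clusters of KRAB zinc finger genes, whose products repress transposable elements.

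Each peak carries 2 values by the authors, read here as the log2 fold enrichment of IP over input and the −log10 p of that enrichment. Each is 1 value for both replicates together, so no value has an SD and no difference between the lists could be tested against the spread between replicates. All comparisons below describe these 2 lists, and none of them was given a test. Exact (Clopper-Pearson) 95% binomial intervals cover counting error only, and they are too narrow where neighbouring peaks lie in the same transcript. Genes are not named, since an hg19 annotation was not used here, and positions are hg19 coordinates counted from 1. The coding, intronic or untranslated position of a peak, its sequence and any quadruplex pattern in it were not analysed here.

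The label of a gene-dense chromosome was checked against a RefSeq gene table of build GRCh38.p14, used only for counts of genes. Chromosome 19 held 1451 of 20037 protein-coding genes, 7.24%, at 24.8 genes per Mb of its annotated span, the highest of all chromosomes. Chromosome 17 followed with 14.1 and chromosome 11 with 9.68 genes per Mb. Genes whose symbols begin with ZNF, most of them zinc finger genes, numbered 250 on chromosome 19, 48.4% of all such genes and 17.2% of the chromosome's protein-coding genes.

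As deposited, both lists held more peaks on chromosome 19 than its share of genes. It carried 11.0% of Ctrl peaks (95% interval 9.47 to 12.8%), the most of any chromosome, and 8.65% of PDS peaks (7.66 to 9.73%), against 7.24% of protein-coding genes. With the stricter threshold (minimums of 5 for −log10 p and 4 for log2 fold) it carried 10.5% of Ctrl peaks but 5.20% of PDS peaks, below its share of genes. On chromosome 19 the peaks left are those with a log2 fold of at least 4, described again below. Per 100 protein-coding genes there were 10.8 Ctrl and 17.4 PDS peaks on chromosome 19, and 6.80 and 14.4 on the other chromosomes together. By this measure 3 chromosomes stood above chromosome 19 in the Ctrl list, namely chromosomes 8 (14.4), X (13.7) and 22 (10.9). In the PDS list 4 did, namely chromosomes X (27.5), 22 (22.0), 8 (21.1) and 17 (18.5). Leaving the 250 ZNF genes out of the denominator alone gave 13.1 Ctrl and 21.1 PDS peaks per 100 remaining genes of chromosome 19. The ranking changed when loci, the stretches of same-strand peaks defined below, were counted in place of peaks. Per 100 protein-coding genes chromosome 19 then had 5.31 Ctrl and 6.34 PDS loci. Only chromosome 22 stood above it (7.54 and 6.65). Chromosomes 8 (3.36 and 3.64), X (3.89 and 5.19) and 17 (4.28 and 5.99) stood below.

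**Figure D1:**
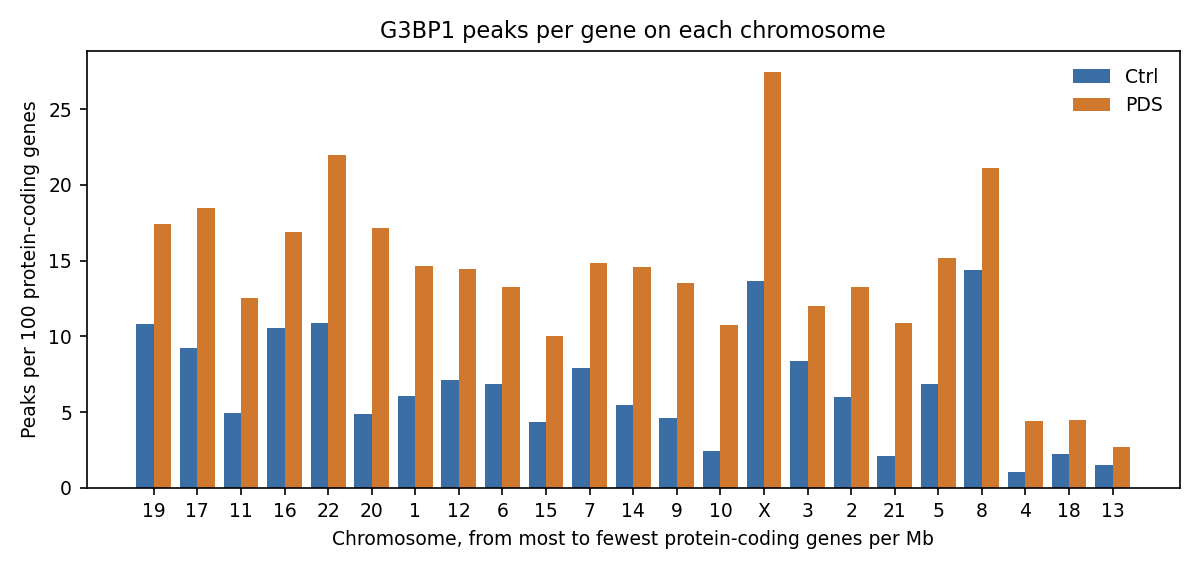
Bars give the number of Ctrl (blue) and PDS (orange) peaks per 100 protein-coding genes of each chromosome, ordered from the most to the fewest genes per Mb. Chromosome 19, at the left, stands at 10.8 and 17.4, while chromosomes X and 8, which are less dense in genes, stand higher in both lists. Counted by loci in place of peaks, which is not drawn, chromosomes X and 8 stand lower than chromosome 19.

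The excess of the PDS list was smaller on chromosome 19 than over the rest of the genome. It held 1.61 PDS peaks for each Ctrl peak, against 2.11 on the other chromosomes, and only chromosomes 3 (1.44), 8 (1.47) and 16 (1.60) had lower ratios among the 23 chromosomes with peaks. The ratio of the bound length was 1.32 on chromosome 19, with 16687 nt in the PDS list and 12646 nt in the Ctrl list, and 1.80 elsewhere. After same-strand peaks within 50 nt of each other had been joined, 131 Ctrl and 181 PDS regions remained, a ratio of 1.38, against 1.78 elsewhere. Whether the ratio of chromosome 19 differs from that of the rest was not tested.

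The sites were spread over both arms but left long stretches empty. The first peak began at 572577 and the last ended at 59062015, and peaks fell into 40 of the 60 windows of 1 Mb up to that point. The longest stretch without a peak ran over 12.0 Mb, from 19017840 to 31039208, a part of the chromosome that as background includes the centromere. Below it lay 74 Ctrl and 135 PDS peaks, a ratio of 1.82, and above it 83 and 118, a ratio of 1.42. The window with the most peaks was the last, from 59 to 60 Mb, with 12 Ctrl and 20 PDS peaks that all belonged to 1 locus. The window from 3 to 4 Mb held 9 Ctrl and 18 PDS peaks, that from 2 to 3 Mb held 7 and 19, and that from 6 to 7 Mb held 8 and 18. The window from 0 to 1 Mb and that from 49 to 50 Mb each held 12 and 12. The strands were used about evenly: the plus strand carried 49.7% of Ctrl peaks (41.6 to 57.8%) and 53.0% of PDS peaks (46.6 to 59.2%), compared with 43.3% and 45.2% on the other chromosomes.

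In shape the peaks resembled those of other chromosomes. The median width was 77 nt in the Ctrl list, with quartiles of 52 and 106 nt, and 60 nt in the PDS list, with quartiles of 32 and 93 nt. The other chromosomes had medians of 74 and 63 nt. Peaks narrower than 20 nt numbered 9 in the Ctrl list (5.73%), where all chromosomes gave 6.47%, and 40 in the PDS list (15.8%), where all chromosomes gave 14.7%. A peak that began exactly where the previous one ended was counted as abutting. Abutting peaks numbered 22 of 157 Ctrl peaks (14.0%), where all chromosomes gave 11.1%, and 57 of 253 PDS peaks (22.5%), where all chromosomes gave 23.7%. Unbroken runs of such peaks numbered 17 with 39 peaks in the Ctrl list and 43 with 100 peaks in the PDS list. The Ctrl run with most pieces held 4 peaks, at chr19:49119982-49120082 on the minus strand, and the PDS run with most pieces held 5, at chr19:40331054-40331155 on the minus strand.

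In the PDS list highly enriched peaks were scarcer on chromosome 19 than on the other chromosomes, while in the Ctrl list they were about as frequent; this difference was not tested. The median log2 fold of chromosome 19 was 3.52 in the Ctrl list (quartiles 3.22 and 3.93), the same as elsewhere, and 3.56 in the PDS list (3.26 and 3.85), against 3.60 elsewhere (3.26 and 4.08). The lists diverged in the upper range. A log2 fold of at least 4 was reached by 33 of 157 Ctrl peaks, 21.0% (14.9 to 28.2%), where all chromosomes gave 22.0%. In the PDS list it was reached by 42 of 253 peaks, 16.6% (12.2 to 21.8%), where all chromosomes gave 27.6% and the chromosomes other than 19 gave 28.7% (27.0 to 30.4%). From a log2 fold of 4.5 upwards the PDS list held 11 peaks of chromosome 19 (4.35%) and 339 peaks elsewhere (12.7%), and at least 5 was reached by 1 peak (0.395%) against 104 (3.89%). The Ctrl list held 13 peaks at 4.5 or more (8.28%, against 8.39% elsewhere) and 3 at 5 or more (1.91%, against 2.77% elsewhere). The number of PDS peaks per Ctrl peak among those of log2 fold 4 or more was therefore 1.27 on chromosome 19 and 2.74 elsewhere, and at 4.5 it was 0.846 and 3.20.

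**Figure D2:**
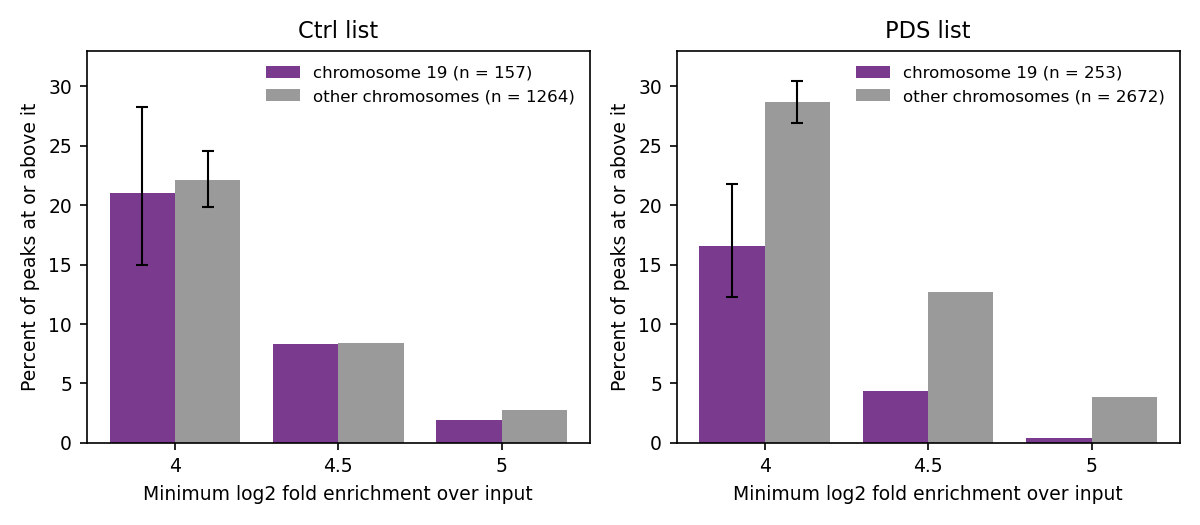
Bars give the percentage of peaks at or above a log2 fold enrichment of 4, 4.5 and 5 on chromosome 19 (purple) and on the other chromosomes (grey), for the Ctrl list at the left and the PDS list at the right. Error bars on the first pair of bars are exact 95% binomial intervals; in the PDS list chromosome 19 stands at 16.6% and the others at 28.7%, while in the Ctrl list they stand at 21.0% and 22.2%.

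On chromosome 19 the PDS share also stayed below the Ctrl share without the loci with most peaks. Without the locus with most peaks, 27 of 145 Ctrl peaks (18.6%) and 31 of 233 PDS peaks (13.3%) reached a log2 fold of 4, and without the 3 loci with most peaks 17.8% and 13.1% did. Loci were left out on chromosome 19 only, and the share fell in both lists. These values therefore cannot speak to the comparison with other chromosomes. Among the 19 chromosomes with at least 50 PDS peaks, chromosome 19 had the fourth lowest share of PDS peaks at 4 or more, after chromosomes 17, 14 (15.9%) and 9 (16.2%). The highest shares were those of chromosomes 8 (55.0%), X (43.8%) and 2 (42.2%), which raise the pooled value of the other chromosomes. On 3 of these 19 chromosomes the share was lower in the PDS list than in the Ctrl list: chromosome 17 (13.4% against 28.7%), chromosome 19, and chromosome 20 (33.7% against 38.5%). Among the 5 chromosomes densest in genes, chromosome 17 thus had the same order as chromosome 19 and the other 3 had the opposite one: the share was 27.6% against 12.5% on chromosome 11, 27.8% against 23.3% on chromosome 16 and 19.2% against 6.12% on chromosome 22.

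Within ranges of log2 fold PDS peaks of chromosome 19 had the higher median −log10 p, but the gap was small in the top range. For log2 folds from 3 to 3.25 the median −log10 p was 6.68 over 47 Ctrl peaks and 10.7 over 62 PDS peaks, a ratio of 1.60. From 3.25 to 3.5 it was 8.76 and 15.0, and from 3.5 to 4 it was 13.6 and 19.6. At 4 and above it was 22.8 over 33 Ctrl peaks and 24.2 over 42 PDS peaks, a ratio of 1.06, whereas the other chromosomes gave 23.0 and 33.4, a ratio of 1.45. This last range has no upper limit, so log2 fold was not matched in it. A log2 fold of 4.5 or more was reached there by 13 of 33 Ctrl and 11 of 42 PDS peaks on chromosome 19. Elsewhere it was reached by 106 of 280 Ctrl and 339 of 766 PDS peaks. The value 400, which stands in for the highest −log10 p, was carried by 1 Ctrl and 2 PDS peaks of chromosome 19 and by 7 and 80 peaks elsewhere. The reads behind a peak were not analysed here, and their part in these values was not tested.

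Peaks of both lists that had at least 1 nt in common, strand included, were called shared. On chromosome 19, 77 of 157 Ctrl peaks were shared, 49.0% (41.0 to 57.1%), where all chromosomes gave 51.5%. Of the PDS peaks 85 of 253 were shared, 33.6% (27.8 to 39.8%), where all chromosomes gave 30.6%. Both shares lay close to the background of their list. The overlap covered 4697 nt, 37.1% of the Ctrl length and 28.1% of the PDS length, and across strands the lists had 0 overlaps. The shares depended on the definition of overlap: they were 34.4% of Ctrl and 21.3% of PDS peaks when each peak had to cover at least 50% of the other. With the PDS list shortened to its most enriched peaks, as many as the Ctrl list holds, they were 30.6% and 43.4%. The order of the lists turned there, but shortening also leaves fewer PDS peaks to divide by. The shares over all chromosomes under these other definitions were not analysed here.

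Shared Ctrl peaks of chromosome 19 had a median log2 fold of 3.69 (quartiles 3.44 and 4.10) and the 80 unshared ones 3.36 (3.16 and 3.64), a difference of 0.33. On the other chromosomes these medians were 3.62 and 3.44. In the PDS list the order of the gaps was the opposite. The 85 shared peaks of chromosome 19 had a median of 3.66 and the 168 unshared ones 3.45, a difference of 0.21, while elsewhere the medians were 4.02 and 3.47, a difference of 0.55. The unshared PDS peaks of chromosome 19 thus had nearly the median of those elsewhere, and the shared PDS peaks a lower one.

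The same was seen where 1 Ctrl peak met exactly 1 PDS peak, which gave 41 pairs on chromosome 19 and 369 elsewhere. The median log2 fold in the chromosome 19 pairs was 3.65 for the Ctrl peak and 3.59 for the PDS peak, and the PDS value was the higher in 18 of 41 pairs, 43.9% (28.5 to 60.3%). On the other chromosomes the medians were 3.55 and 3.77, and the PDS value was the higher in 236 of 369 pairs, 64.0% (58.8 to 68.9%). The median difference, PDS minus Ctrl, was -0.08 on chromosome 19 (quartiles -0.49 and 0.20) and 0.18 elsewhere (-0.20 and 0.67). Each value is relative to the input of its own condition, and the pairs were selected by their overlap. The 41 pairs lay in 31 loci, where a locus is a stretch of same-strand peaks as defined below, and the median difference within a locus was above 0 in 12 and below 0 in 19. Without the locus with most peaks the PDS value was the higher in 16 of 36 pairs. In the 13 pairs with a Ctrl log2 fold above 4 the PDS value was the lower, which is in part a result of singling them out by their Ctrl value.

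**Figure D3:**
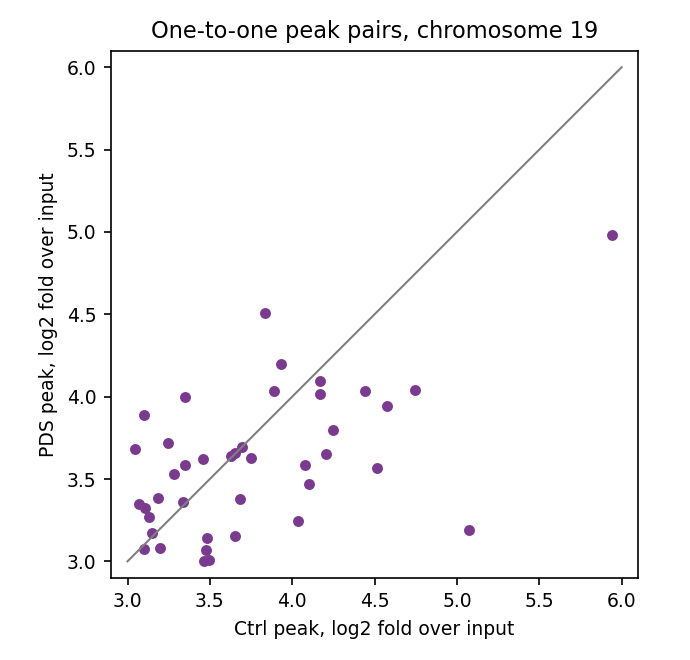
Each of the 41 points is a pair of overlapping peaks on chromosome 19, with the authors' log2 fold of the Ctrl peak on the horizontal axis and of the PDS peak on the vertical axis; the line marks equal values. The PDS value is the higher in 18 pairs and the lower in 23, and the 13 pairs with a Ctrl value above 4 lie below the line.

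Among the 17 chromosomes with at least 10 pairs the median difference was below 0 on 3. These were chromosome 17 (-0.17, higher in 12 of 30 pairs), chromosome 19 (-0.08) and chromosome 1 (-0.03, higher in 18 of 40 pairs). The most negative difference on chromosome 19, -1.88, was at chr19:39220144-39220285 on the plus strand, where the Ctrl log2 fold was 5.07 and that of the PDS peak at chr19:39220249-39220280 was 3.19. The most positive, 0.79, was at chr19:35758111-35758236 on the plus strand, where the Ctrl value was 3.10 and the PDS value 3.89 in the peak at chr19:35758024-35758262. The peak borders also met less closely: the midpoints lay within 10 nt in 16 of 41 pairs (39.0%), compared with 234 of 369 elsewhere (63.4%), and the median widths were 101 nt in Ctrl and 77 nt in PDS, compared with 79 and 81 nt elsewhere.

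Same-strand peaks of either list less than or equal to 10000 nt apart were grouped, which gave 118 loci as stand-ins for transcripts; on a chromosome this dense a locus can hold more than 1 gene. The loci lay close together: the median distance to the nearest locus on the same strand was 89.9 kb, and 311 kb on the other chromosomes. The Ctrl list had peaks in 77 loci and the PDS list in 92, a ratio of 1.19, compared with 1.45 elsewhere. Both lists had peaks in 51 loci, which is 66.2% of the Ctrl loci (54.6 to 76.6%), where all chromosomes gave 63.7%, and 55.4% of the PDS loci (44.7 to 65.8%), where all chromosomes gave 44.7%. A further 26 loci held Ctrl peaks alone and 41 PDS peaks alone. Gaps of up to 1000 nt gave 43 and 81 such loci, and the stricter threshold gave 12 and 10, which turned their order. Of the 51 loci in both lists, 25 held more PDS than Ctrl peaks, 18 as many and 8 fewer. Elsewhere these numbers were 202, 125 and 47 of 374 loci, a similar division. By joined regions they were 20, 23 and 8 on chromosome 19 and 147, 183 and 44 elsewhere. The highest log2 fold of the locus was the PDS value in 22 of the 51 loci (43.1%) and the Ctrl value in 29, while elsewhere it was the PDS value in 240 of 374 (64.2%).

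Unshared peaks lay mostly in loci that both lists had in common, as they did over all chromosomes. Of the 168 unshared PDS peaks, 101 lay in a locus with a Ctrl peak, 60.1% (52.3 to 67.6%), where all chromosomes gave 53.3%. Of these 168 peaks, 22 lay within 100 nt of a Ctrl peak (13.1%) and 29 from 101 to 1000 nt. Another 47 lay beyond that up to 10000 nt, and 70 lay farther away (41.7%). On the other chromosomes these numbers were 162 (8.70%), 291, 478 and 932 (50.03%) of 1863 unshared PDS peaks. The differences in distance were not tested. Of the 80 unshared Ctrl peaks, 49 lay in a locus with a PDS peak, 61.3% (49.7 to 71.9%), where all chromosomes gave 57.6%. Their median log2 fold was 3.44 in such loci and 3.24 in loci of the Ctrl list alone; for the unshared PDS peaks the medians were 3.53 and 3.35.

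**Figure D4:**
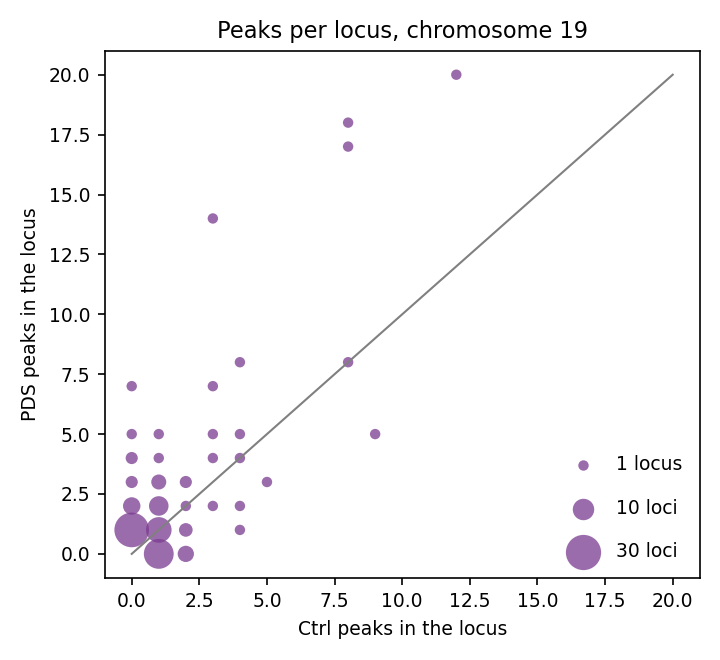
Each circle stands for the loci of chromosome 19 with a given number of Ctrl peaks (horizontal axis) and PDS peaks (vertical axis), its area growing with the number of loci; the line marks equal numbers. Most of the 118 loci hold 1 or 2 peaks, and the 4 loci with most peaks lie above the line.

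A few loci held many of the chromosome's peaks. Single peaks made up 50 of the 77 loci in the Ctrl list (64.9%) and 48 of the 92 in the PDS list (52.2%). These shares were close to the 64.4% and 51.6% of the other chromosomes. The 8 loci with most peaks held 55 Ctrl peaks (35.0%) and 97 PDS peaks (38.3%). Of these peaks 14 in the Ctrl list and 37 in the PDS list abutted the previous one, so both shares depend on how peaks were split. The same shares were not analysed for other chromosomes. The first of these loci, at chr19:59055851-59062015 on the plus strand, held 12 Ctrl and 20 PDS peaks, which joined into 8 and 12 regions. Its peaks formed a 5′ group in the first 1370 nt and a 3′ group from 4411 nt to the end at 6165 nt, with none between. In the 5′ group the lists ran in parallel: 6 of 6 Ctrl peaks and 8 of 9 PDS peaks were shared, with the highest Ctrl value, 4.88, at chr19:59056142-59056231 and the highest PDS value, 4.77, at chr19:59056157-59056217. The 3′ group held the most enriched Ctrl peak of the chromosome, at chr19:59060788-59060934 with a log2 fold of 5.94 and a −log10 p of 56.9. The PDS peak inside it, at chr19:59060817-59060869, had 4.98. Just upstream of it, between 4411 and 4895 nt, lay 6 PDS peaks with log2 folds from 3.76 to 4.37 and 0 Ctrl peaks.

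The second locus, at chr19:6413936-6424790 on the minus strand, held 8 Ctrl and 18 PDS peaks (5 and 10 regions). At its 5′ edge 3 peaks of each list matched, led by chr19:6424505-6424617 in Ctrl (log2 fold 3.70) and chr19:6424507-6424625 in PDS (3.66), both with the stand-in −log10 p of 400. Between 5525 and 7969 nt from the 5′ edge lay 10 PDS peaks with log2 folds from 3.09 to 4.27, where the Ctrl list had 0. In the 3′ part, from 9707 nt on, both lists held 5 peaks. There the Ctrl peak at chr19:6414563-6414664 had a log2 fold of 4.58 and its PDS partner 3.94, while the PDS peak at chr19:6414981-6415072 had 4.51 and its Ctrl partner 3.83.

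The third locus, at chr19:3976624-3983153 on the minus strand, held 8 Ctrl and 17 PDS peaks (5 and 7 regions), and its edges differed between the lists. The 4 PDS peaks of the first 173 nt had no Ctrl partner, with log2 folds from 3.37 to 4.09, and the 2 Ctrl peaks from 6413 nt to the 3′ edge, with 3.02 and 3.83, had no PDS partner. The third most enriched Ctrl peak of the chromosome, counting 1 per locus, lay here. It was 4 nt long, at chr19:3979806-3979809 with a log2 fold of 5.03, and the 5-nt PDS peak at chr19:3979806-3979810 had 3.74. The fourth locus, at chr19:2429665-2444537 on the minus strand, held 3 Ctrl and 14 PDS peaks (3 and 5 regions), the largest excess of the PDS list on the chromosome. An abutting run of 4 PDS peaks at its 5′ edge, with log2 folds from 3.32 to 3.93, had no Ctrl partner. Its most enriched PDS peak, at chr19:2433930-2434005 with 4.86, overlapped a Ctrl peak of 4.07.

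**Figure D5:**
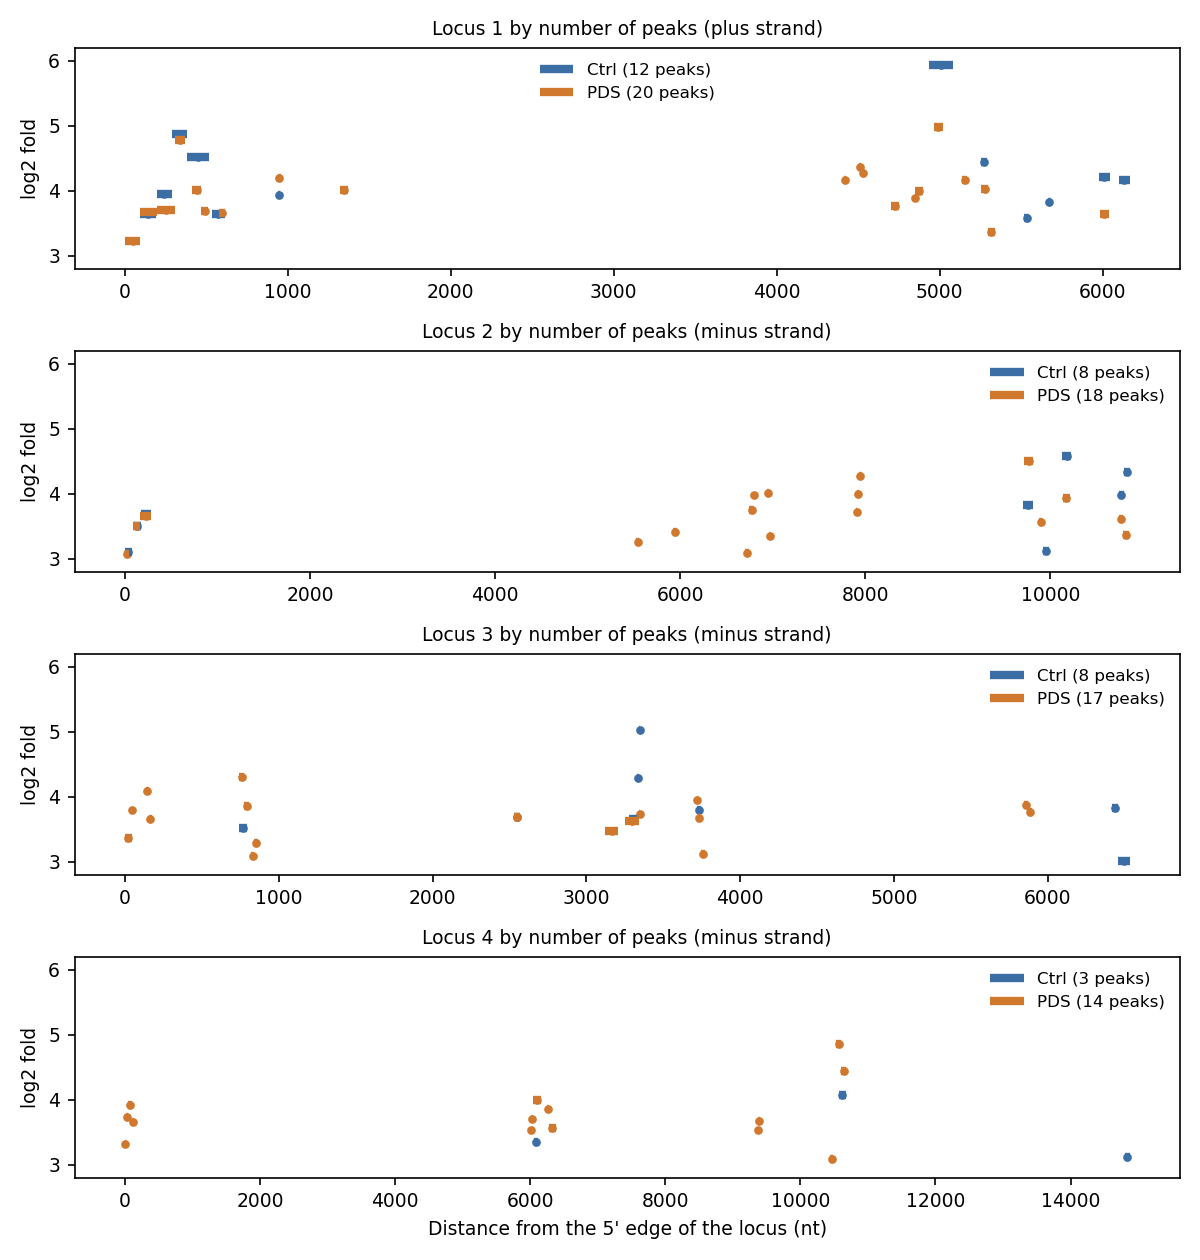
Peaks of the 4 loci with most peaks on chromosome 19 are drawn at their distance in nt from the 5′ edge of the locus (horizontal axis) and at the authors' log2 fold over input (vertical axis), Ctrl in blue and PDS in orange; dots mark midpoints and bars the peak's extent. In locus 2 the PDS list has 10 peaks between 5525 and 7969 nt where the Ctrl list has 0, and in locus 1 the highest peak is the Ctrl one at 5.94.

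The next 4 loci showed no common direction. At chr19:36209042-36224211 on the plus strand there were 8 Ctrl and 8 PDS peaks, of which 3 and 4 were shared, and the highest Ctrl value was 4.36 at chr19:36209104-36209180 against 3.60 in the PDS peak at chr19:36209118-36209166. At chr19:49119166-49120640 on the minus strand the Ctrl list led with 9 peaks against 5, the largest Ctrl excess of the chromosome, but by joined regions with 4 against 3. There the Ctrl peak at chr19:49119399-49119460 had a log2 fold of 4.95 and its PDS partner 4.35. The PDS peak at chr19:49119988-49120053, with 4.93, overlapped 3 narrow Ctrl peaks of at most 3.85. At chr19:11094849-11113797 on the plus strand there were 4 Ctrl and 8 PDS peaks, with 1 of each shared. There the 3 Ctrl peaks that were not shared lay within 2829 nt of the 5′ edge, and the 5 PDS peaks nearest the 3′ edge lay from 12321 nt on. At chr19:40330912-40331421 on the minus strand 3 Ctrl and 7 PDS peaks lay within 510 nt and joined into 2 regions in each list.

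Of the 10 most enriched Ctrl peaks of the chromosome, counting 1 per locus, 8 overlapped a PDS peak, and in all 8 the Ctrl value was the higher. Those not yet given were at chr19:36124730-36124893 on the plus strand (log2 fold 4.74, PDS partner 4.04) and at chr19:11097055-11097159 on the plus strand (4.51, PDS partner 3.57). The 2 without a partner were single peaks in loci of the Ctrl list alone, at chr19:10942285-10942416 on the plus strand (4.68) and at chr19:15271827-15271943 on the minus strand (4.27). These peaks were ranked by their Ctrl value, so that a lower partner is in part a result of the choice.

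Of the 10 most enriched PDS peaks, chosen in the same way, 7 overlapped a Ctrl peak. In 6 of these 7 the PDS value was the higher, and the exception was the partner of the Ctrl peak at 5.94. Here the ranking was by the PDS value, so that a lower Ctrl partner is in part a result of the choice. The most enriched PDS peak of the chromosome lay at chr19:8551129-8551213 on the plus strand, with a log2 fold of 5.11, and was not shared, although a Ctrl peak of 3.94 lay 507 nt away. Next came, besides those given, chr19:50775902-50775988 on the plus strand (4.97, no Ctrl peak in the locus) and chr19:54710164-54710226 on the plus strand (4.95, Ctrl partner 3.87). The others not yet given were chr19:49507533-49507639 on the plus strand (4.37, no Ctrl peak in the locus), chr19:3982377-3982413 on the minus strand (4.30, Ctrl partner 3.52) and chr19:52716207-52716354 on the plus strand (4.27, highest Ctrl partner 3.56).

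Loci of 1 list alone held few peaks as a rule. The one with most was chr19:50771476-50789951 on the plus strand, with 7 PDS peaks, each a region of its own, with a median log2 fold of 3.97, and 0 Ctrl peaks. The other PDS-only loci with the highest values were chr19:49506541-49507639 (2 peaks), chr19:49686078-49686179 (1 peak, log2 fold 4.27), chr19:8528381-8531210 (4 peaks, highest 3.96), all on the plus strand, and chr19:2111305-2118697 on the minus strand (2 peaks, highest 3.87). Among Ctrl-only loci, after the 2 single peaks above, came chr19:10431771-10432243 on the minus strand (2 peaks, highest 4.18), chr19:41812468-41812615 on the plus strand (1 peak, 4.18) and chr19:46893739-46893849 on the plus strand (1 peak, 3.86). In loci that both lists had in common, the largest Ctrl excesses after the locus at 49.1 Mb were at chr19:42460897-42463096 on the minus strand (4 Ctrl peaks and 1 PDS peak), chr19:52716027-52729535 on the plus strand (5 and 3) and chr19:804532-811317 on the plus strand (4 and 2). Since the read depth of the libraries was not analysed here, a peak missing from a list cannot be told apart from a site too thinly covered to be called.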

How the data were processed

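The members and the lists were chosen with earlier results of these data known. Reads of the seCLIP libraries had been handled with cutadapt, UMI-tools and STAR against hg19, per the submitters' processing notes; which peak caller and limits were used, and how replicates were combined, is not given in the sources used here. The authors deposited 1 list per condition without a header, named as replicate 1 against replicate 2. The deposited −log10 p and the deposited log2 fold of IP over input were recognised from their values (all above 3) and the usual eCLIP layout, and 400 was read as a stand-in. Starts were taken as counted from 0.

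Overlap, joining within 50 nt and chaining over 10000 nt were computed in python 3.11.15 with pandas 2.3.3, scipy 1.17.1 and numpy 2.4.6, and figures with matplotlib 3.10.9. Overlap and joining were checked against bedtools 2.31.1. Overlap was also checked on copies of Ctrl peaks that had been shifted or moved to the other strand. Named were the 10 peaks of highest log2 fold per list (1 per locus), the 8 loci with most peaks, the 5 with the largest excess each way and the 5 most enriched of each list alone; extremes among pairs, runs and chromosomes were picked after their values were seen. Alternatives were joined regions, a stricter threshold, other overlaps and other locus definitions. Genes, gene lists, transcript regions and quadruplex patterns were planned and not analysed here, as no hg19 genome or annotation was used. Nothing in the labels says whether replicates were separate cultures.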

Additional observations from a re-analysis of the deposited data

How the results depend on the processing

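Alternatives gave 51 values, of which 32 counted as near the reported one and 19 had moved. Near means up to 1.5 times for a count or ratio, and inside the 95% interval of the reported value for a percentage (exact binomial) or median (from order statistics, 3.56 to 3.89 for shared Ctrl and 3.59 to 3.71 for shared PDS peaks). The medians of log2 fold, each with its alternatives, counted as near. The stricter threshold (minimums of 5 for −log10 p and 4 for log2 fold) left 33 Ctrl and 42 PDS peaks and lowered the chromosome's part of the PDS list to 5.20%. These are the same peaks as those with a log2 fold of at least 4, so the values repeat that result. The shared percentage of Ctrl peaks was 34.4 with reciprocal overlap of 50%, 30.3 with the stricter threshold and 30.6 with the PDS list shortened to the length of the Ctrl list. That of PDS peaks was 21.3, 23.8 and 43.4, and 42.3 within 100 nt. The order of the lists turned with the shortened PDS list, which leaves fewer PDS peaks to divide by. These alternatives were not run over all chromosomes. Gaps of up to 1000 nt gave 57 loci common to the lists, 43 of Ctrl only and 81 of PDS only. With gaps of up to 50000 nt these were 52, 18 and 26, with a minimum of 2 peaks per list 18, 9 and 26, and with the stricter threshold 9, 12 and 10. Leaving out the locus with most peaks, shortening the PDS list and counting loci for the chromosome's share were added after seeing the data. The cause was not tested, beyond the fact that a stricter threshold keeps fewer peaks. No paired analysis was possible because each list gives 1 value per peak for both replicates together, and no replicate could be left out. The alternatives on transcript regions and quadruplex patterns were not run.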

Other observations

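Loci on opposite strands seldom met, although chromosome 19 is dense in genes. Of its 118 loci, 2 (1.69%, 95% interval 0.206 to 5.99%) had a locus of the other strand within 2000 nt, compared with 12 of 1074 (1.12%) on the other chromosomes. The 2 loci are the members of 1 pair, so the interval, which counts them as independent, is too narrow. Those 2 loci lay tail to tail: chr19:804532-811317 on the plus strand, with 4 Ctrl and 2 PDS peaks, ended 1207 nt before chr19:812525-813402 on the minus strand, with 3 and 5. The Ctrl list thus led in 1 of them and the PDS list in the other, at the same end of the chromosome. The pair was picked after its counts were seen, and the difference was not tested.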
